A study of Mus musculus with 4 samples.

Results

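PIWI proteins are the germline branch of the Argonaute family, and the mouse genes examined here are Piwil1 (MIWI), Piwil2 (MILI) and Piwil4 (MIWI2). They were taken as the lines of the deposited count table whose symbol is Piwil1, Piwil2 or Piwil4, which gave 3 genes of 22274, each with a single line. Poly(A) RNA of adult mouse testis was sequenced from Fam170a knockout animals (KO, 2 libraries) and from wild-type animals (WT, 2 libraries), and the series asks what the gene does in spermiogenesis, the remodelling of round spermatids into sperm. The labels give no strain, age in weeks, deleted segment or clone for the knockout. They also do not say that the libraries of a genotype came from different animals, so the spread between libraries may be technical. In the labels, KO replicate 2 has Fam171a written as its genotype in place of Fam170a.

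PIWI proteins carry piRNAs, small RNAs that pair with transposon and other transcripts and direct their cleavage or silencing. MILI acts from fetal germ cells through meiosis and into round spermatids, MIWI acts in pachytene spermatocytes and round spermatids, and MIWI2 acts in the nuclei of fetal prospermatogonia, where it guides DNA methylation of transposons. Loss of MIWI stops male germ cells as round spermatids, and loss of MILI or MIWI2 stops them in meiosis.

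Levels are given as CPM, the count of a gene per 1000000 counts of its library after TMM scaling, and each log2 fold change is that of KO relative to WT. Total counts per library lay between 26029374 and 41684437. Fam170a itself had 1 count in each KO library, against 2240 and 3510 counts in the WT libraries. The WT pair was less alike than the KO pair, with a chi-square of 45.2 per degree of freedom for the WT pair and 10.5 for the KO pair, where sampling noise alone gives about 1. WT replicate 1 was at 36.5 from KO replicate 1 and 31.3 from KO replicate 2 on that measure, nearer than to WT replicate 2, which was at 39.3 and 62.3 from the KO libraries. By this measure the KO libraries formed the closest pair, while the WT libraries did not group together and WT replicate 2 stood apart. The chi-square uses raw counts, so it grows with depth and weighs abundant genes most. By the Pearson correlation of log2 CPM across genes, which are not independent replicates, WT replicate 1 was at 0.9911 with WT replicate 2. It was at 0.9903 and 0.9905 with the KO libraries, so the measures differ on which library was nearest to WT replicate 1. The KO pair was at 0.9963, and WT replicate 2 was at 0.9872 and 0.9847 with the KO libraries. PIWI values without each WT library are given at the end. The PIWI genes were chosen by name with their KO and WT counts already known, so their values in this contrast are a description and no p is given for them.

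All 3 genes are protein-coding and lie on different chromosomes of GRCm38 in the GENCODE M21 annotation. Piwil1 (ENSMUSG00000029423) spans chr5:128702524-128755474 on the plus strand, with 3 annotated transcripts of up to 22 exons. Piwil2 (ENSMUSG00000033644) spans chr14:70372477-70429383 on the minus strand, with 3 transcripts of up to 23 exons. Piwil4 (ENSMUSG00000036912) spans chr9:14696230-14740733 on the minus strand, with 4 transcripts of up to 20 exons. No source used here names the authors' build, so these positions come from the annotation. Piwil4 overlaps the antisense transcript Gm10706 and Piwil1 overlaps the unclassified transcript 4930553I04Rik on the opposite strand. Whether counting used strand is not given, so reads of these partners cannot be told apart from those of the PIWI genes.

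Sequence before a RefSeq start was available for Piwil1 and Piwil4 in the RefSeq promoter table (GRCm38.p6). It is shown here because Piwil1 and its partners Tdrd1 and Tdrd5, described further on, were all low in KO libraries. The start given for Piwil1 lies 33.7 kb inside the GENCODE span above, since 1 of the 3 annotated transcripts begins farther upstream, and the stretch before it overlaps the end of 4930553I04Rik. The stretches stop before the first annotated transcript start inside the 250-base window, and read 5′ to 3′ on the strand of the gene. Capitals mark the E-box CACGTG and the MYB core AACNG (CNGTT on the other strand), letters recognised by TCFL5 and by A-MYB, both transcription factors of meiotic male germ cells. The motifs were picked after the Piwil1 sequence had been seen. The table holds 3 windows for Tdrd1 and 2 for Piwil4, and the most upstream one is shown for each. The single Tdrd5 window lies within an annotated 5′ untranslated exon and is not printed.
Piwil1, chr5:128735996-128736173, plus strand: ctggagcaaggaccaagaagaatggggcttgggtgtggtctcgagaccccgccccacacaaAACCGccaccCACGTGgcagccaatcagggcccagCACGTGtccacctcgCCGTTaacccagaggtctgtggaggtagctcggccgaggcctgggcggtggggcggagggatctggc
Tdrd1, chr19:56825959-56826208, plus strand: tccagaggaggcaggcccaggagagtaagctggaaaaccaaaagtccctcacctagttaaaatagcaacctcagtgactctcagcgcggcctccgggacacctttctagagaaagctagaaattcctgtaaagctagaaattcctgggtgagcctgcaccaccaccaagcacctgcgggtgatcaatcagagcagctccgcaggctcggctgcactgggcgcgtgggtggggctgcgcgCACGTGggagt
Piwil4, chr9:14740734-14740922, minus strand: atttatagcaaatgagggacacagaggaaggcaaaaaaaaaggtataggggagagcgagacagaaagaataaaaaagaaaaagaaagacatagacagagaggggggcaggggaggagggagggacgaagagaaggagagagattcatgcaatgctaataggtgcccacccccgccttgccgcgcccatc

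The Piwil1 window held 2 E-boxes, 179 and 154 bases before the table's start, and 4 MYB cores, of which 2 fall in the printed stretch. An E-box was found in 6.02% of the 32851 windows of the same length in the table, and 2 or more E-boxes in 0.429%. The motif was picked after the Piwil1 sequence was seen, so these shares do not measure how unusual that window is. MYB cores are common letters, present in 74.2% of windows, with 4 or more in 7.03%. The printed Tdrd1 window held 1 E-box and 0 MYB cores, its second window, which overlaps the first, held the same E-box and 1 MYB core, and the most downstream one held 0 E-boxes and 2 MYB cores. The Tdrd5 window held 0 E-boxes and 2 MYB cores, and 42.0% of all windows held 2 or more. The upper Piwil4 window held 0 E-boxes and 1 MYB core, which lies beyond the printed stretch, and the second held 0 E-boxes and 3 MYB cores. Among Piwil1, Tdrd1 and Tdrd5, only the Tdrd5 gene had no E-box in any window, and no Piwil2 window was available. A link between these letters and the levels was not tested. The palindromic cAMP response element TGACGTCA, which CREM binds, was in 0 of these 7 windows and in 1.55% of all windows. A match is a description of letters and not evidence of a bound site.

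Piwil1, the PIWI gene of late spermatocytes and round spermatids, was 3.06-fold lower in KO testes. It had 2898 and 2985 counts in the KO libraries, against 6002 and 9991 in the WT libraries. After scaling it stood at 84.6 and 76.2 CPM in KO, against 231 and 261 CPM in WT. Both KO libraries lay below both WT libraries, and the lowest WT value was 2.73 times the highest KO value, while libraries of 1 genotype differed by 1.11 times in KO and 1.13 times in WT. The means were 80.4 ± 5.91 CPM in KO and 246 ± 21.8 CPM in WT (SD, n = 2 each), 67.3% lower in KO, with a log2 fold change of -1.61 ± 0.10 (SE). Of 15636 tested genes, 84 had a more negative log2 fold change.

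Piwil2, the PIWI gene expressed across the widest span of germ cell stages, was 2.47-fold lower in KO. It had 2222 and 2205 counts in the KO libraries, against 3123 and 6835 counts in the WT libraries. On the CPM scale these were 64.8 and 56.3 in KO, against 120 and 179 in WT. The groups did not overlap, with the lowest WT value 1.85 times the highest KO value, but the WT libraries differed by 1.49 times between themselves and the KO libraries by 1.15 times. Means were 60.6 ± 6.04 CPM in KO and 149 ± 41.6 CPM in WT (SD, n = 2 each), 59.5% lower in KO, with a log2 fold change of -1.30 ± 0.20 (SE). The size of that change depended on the WT library, at -1.62 without WT replicate 1 and -0.99 without WT replicate 2.

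Piwil4, the PIWI gene of fetal prospermatogonia, was near the limit of detection in these adult testes. It had 8 and 9 counts in the KO libraries, against 12 and 23 in the WT libraries. That is 0.233 and 0.230 CPM in KO, with exact 95% Poisson intervals of 0.101 to 0.460 and 0.105 to 0.436, against 0.461 and 0.602 CPM in WT, with intervals of 0.238 to 0.805 and 0.381 to 0.903. The 4 intervals overlap, which by itself does not settle whether single libraries differ. Summed, 17 counts in KO and 35 in WT gave a rate ratio of 0.425, a description that leaves out the spread between libraries. These intervals cover counting error only. The log2 fold change was -1.20 ± 0.44 (SE). Piwil4 passed the filter on low counts through its WT libraries alone, as both KO values were under the cut-off of 0.285 CPM, and its mean level stood at percentile 4.04 among tested genes. Piwil1 stood at percentile 90.2 and Piwil2 at percentile 85.7.

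**Figure D1:**
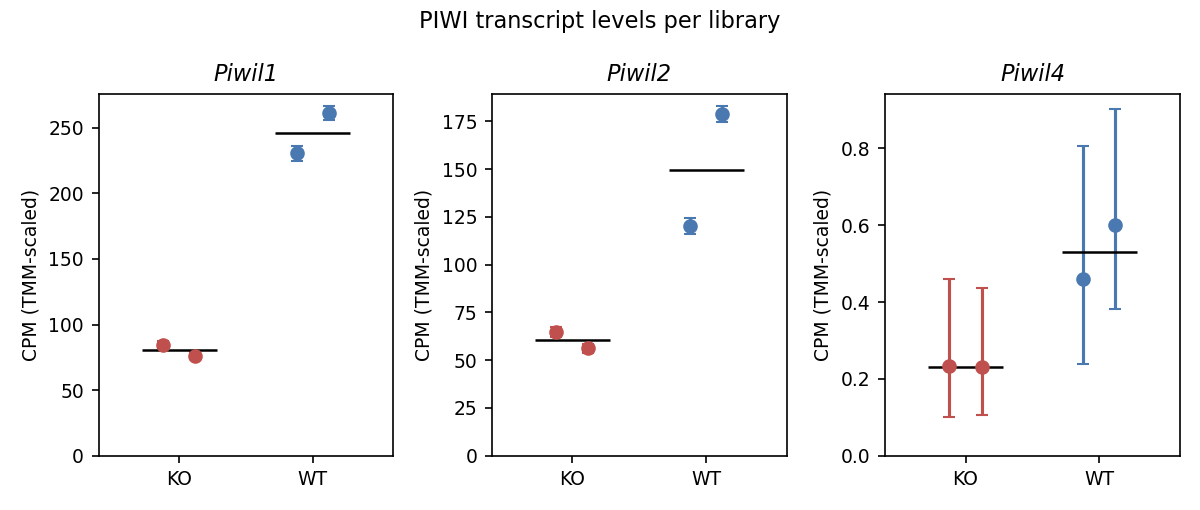
CPM (TMM-scaled) of Piwil1, Piwil2 and Piwil4 in each library, KO left and WT right of each panel. Points are libraries, bars are exact 95% Poisson intervals of the count and black lines are means. The KO libraries of Piwil1 sit at 84.6 and 76.2 CPM and the WT libraries at 231 and 261 CPM, and the intervals of Piwil4 overlap across genotypes.

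For all 3 genes both KO libraries lay below both WT libraries in CPM, as did 27.9% of all tested genes. Both KO libraries lay above both WT libraries for 29.4%. In the edgeR quasi-likelihood fit over 15636 genes, 0.454% of genes were called lower and 0.454% higher (adjusted p under 0.05), and 1 of the 3 PIWI genes, Piwil1, was among the lower ones. Nothing is read from these counts, since the genes were chosen with this contrast in view. Piwil1 was no longer among the lower genes with a block on the replicate number or without KO replicate 2. Piwil2 was among them with DESeq2, with no filter on low counts and with a block on crossed replicate numbers. It was not among them with DESeq2 size factors, total counts or a block on the replicate number. Fits without 1 library went both ways for Piwil2. Nothing is read from these calls either.

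**Figure D2:**
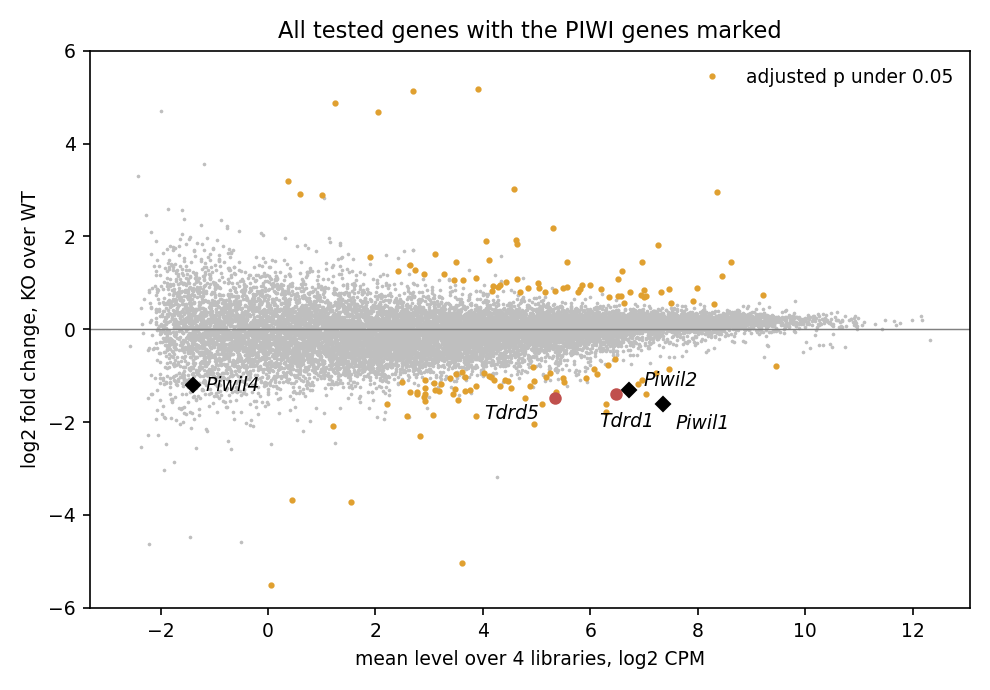
Log2 fold change (KO over WT) against mean level (log2 CPM over 4 libraries) for all tested genes within 6 log2 units of 0, which leaves out 10 genes with larger changes, Fam170a among them. Black diamonds are the PIWI genes, red circles Tdrd1 and Tdrd5, and orange points genes past the threshold. Piwil1 and Piwil2 sit among abundant genes at -1.61 and -1.30, and Piwil4 sits at the low end at -1.20.

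Levels of different genes can be set side by side only per length. Per kilobase of annotated exon, Piwil1 stood at 19.4 and 17.5 CPM per kb in KO, against 52.9 and 60.0 CPM per kb in WT. Piwil2 stood at 12.3 and 10.6 CPM per kb in KO, against 22.7 and 33.8 CPM per kb in WT. Piwil1 was thus the most abundant PIWI transcript in each of the 4 libraries, Piwil2 came next, and Piwil4 was last at 0.0433 and 0.0427 CPM per kb in KO and 0.0856 and 0.112 CPM per kb in WT.

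The summed PIWI signal per length was 29.9 ± 2.50 CPM per kb in KO and 84.8 ± 12.9 CPM per kb in WT (SD, n = 2 each). Piwil1 made up 61.2% and 62.1% of it in KO libraries, against 69.9% and 63.9% in WT libraries. Piwil2 made up 38.7% and 37.8% in KO, against 29.98% and 36.0% in WT. The ratio of Piwil1 to Piwil2 per length was 1.58 and 1.64 in KO libraries, against 2.33 and 1.77 in WT libraries. The ratio was lower in both KO libraries, but the distance between WT libraries was larger than the distance from WT replicate 2 to either KO library. Piwil4 made up 0.137% and 0.151% in KO, against 0.113% and 0.119% in WT, shares that rest on 8 to 23 counts.

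The germ cell stages that express PIWI genes were followed with marker lists, because whole testis mixes all stages. In bulk RNA, fewer cells of a type and less RNA per cell cannot be told apart. The 8 pachytene spermatocyte markers (among them Hspa2, Ldhc and Clgn) summed to 7482 and 7995 CPM in KO, against 7302 and 7078 CPM in WT. The 8 round spermatid markers (among them Acrv1, Spaca1 and Acr) summed to 1613 and 1603 CPM in KO, against 1434 and 1317 CPM in WT. Both sums were higher in each KO library than in each WT library. Of the 8 genes in each list edgeR called 0, while 2 pachytene and 6 round spermatid genes were higher with an unadjusted p under 0.05, and DESeq2 called 0 and 1 higher. Over all tested genes edgeR called 0.454% higher, while 11.8% were higher at that unadjusted p and 2.45% by DESeq2. Per 1000 CPM of pachytene markers, Piwil1 stood at 11.3 and 9.53 CPM in KO, against 31.6 and 36.9 CPM in WT. Such a ratio divides by summed marker RNA, whose stage specificity was not tested, and is not a level per cell.

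Earlier stages, which also express Piwil2, had lower sums in both KO libraries, with WT replicate 1 close to KO replicate 1 for early spermatocytes. The 10 spermatogonial markers summed to 79.1 and 74.1 CPM in KO, against 88.8 and 115 CPM in WT, and Id4, a regulator of stem cells, was the 1 of 9 tested that passed the test, lower at 6.83 ± 0.529 CPM in KO and 14.1 ± 1.49 CPM in WT (SD, n = 2 each). Its log2 fold change was -1.05 ± 0.15 (SE; adjusted p = 0.04998 by edgeR). In the spermatogonial list 4 were lower and 0 higher at an unadjusted p under 0.05, and 2 lower and 0 higher by DESeq2. That call ended under 5 of the alternatives, leaving out KO replicate 1 (adjusted p = 0.213 by edgeR) and KO replicate 2 (adjusted p = 0.409 by edgeR) among them. The 8 early spermatocyte markers summed to 494 and 446 CPM in KO, against 497 and 661 CPM in WT, with 0 called by edgeR, an unadjusted p under 0.05 for 3 lower and 1 higher genes, and the same counts by DESeq2. EdgeR called 0.454% of all genes in each direction. The other shares of all genes were 12.8% lower and 11.8% higher unadjusted, and 4.02% lower and 2.45% higher by DESeq2. Per 1000 CPM of early spermatocyte markers, Piwil2 stood at 131 and 126 CPM in KO, against 241 and 271 CPM in WT, and Piwil1 at 171 and 171 CPM in KO, against 463 and 396 CPM in WT. The part of any stage shift in the PIWI levels was not tested.

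**Figure D3:**
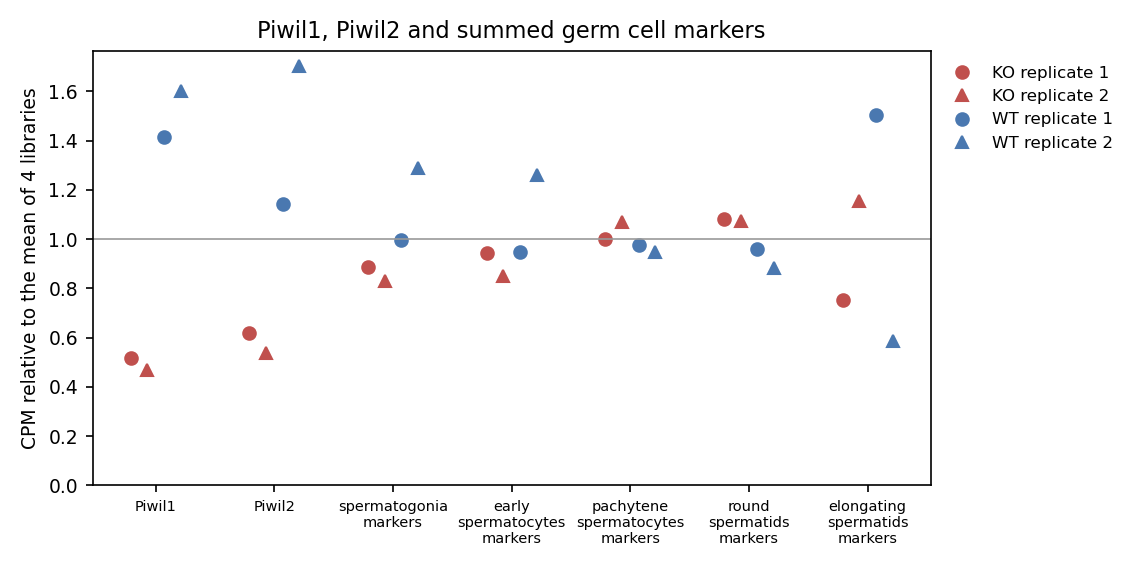
CPM relative to the mean of the 4 libraries for Piwil1, Piwil2 and the summed markers of 5 germ cell stages. Red is KO, blue is WT, circles are replicate 1 and triangles replicate 2. Piwil1 and Piwil2 separate by genotype, while the pachytene sums lie between 7078 and 7995 CPM and the elongating spermatid sums are widest apart between the WT libraries.

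Elongating spermatid markers varied widely within each genotype. Their 8 genes summed to 5542 and 8496 CPM in KO, against 11049 and 4321 CPM in WT, so the WT libraries stood at both ends. Markers of somatic cells were low beside germ cell genes. Sertoli cell sums were 24.2 and 31.2 CPM in KO, against 80.0 and 35.2 CPM in WT, Leydig cell sums were 6.45 and 5.34 CPM in KO, against 14.9 and 8.87 CPM in WT, and macrophage sums were 24.6 and 14.7 CPM in KO, against 15.2 and 5.83 CPM in WT. Peritubular and vascular sums were 20.8 and 25.0 CPM in KO, against 30.1 and 31.1 CPM in WT. EdgeR called 0 of the 22 somatic genes tested, 2 higher and 6 lower genes had an unadjusted p under 0.05, and DESeq2 called 1 lower, against the same shares of all genes as for the early spermatocytes. Of the 25 on the lists, 0 had no count in any library and 1 had none in at least 1 library.

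PIWI proteins work with Tudor domain proteins, which bind methylated arginines in their N-terminal tails and gather them in germ granules. Among 9 Tudor genes tested, 2 were lower in KO and 0 higher by edgeR, beside 0.454% of all genes in each direction. Lower genes numbered 5 at an unadjusted p under 0.05, beside 12.8% of all genes, and 3 by DESeq2, beside 4.02%, with 0 higher by either. Tdrd1, the scaffold that partners MILI, stood at 49.0 and 49.1 CPM in KO, against 118 and 139 CPM in WT, and its log2 fold change was -1.39 ± 0.11 (SE; adjusted p = 0.0119 by edgeR). Tdrd5, needed for processing of pachytene piRNA precursors, stood at 25.1 and 17.6 CPM in KO, against 57.1 and 61.8 CPM in WT, with a log2 fold change of -1.48 ± 0.18 (SE; adjusted p = 0.0350 by edgeR). These log2 fold changes lie close to that of Piwil1. For both genes the KO libraries lay below both WT libraries, as in 27.9% of all tested genes. The Tdrd1 call ended without KO replicate 1 (adjusted p = 0.107 by edgeR) and without KO replicate 2 (adjusted p = 0.121 by edgeR). The Tdrd5 call ended without KO replicate 2 (adjusted p = 0.163 by edgeR).

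The other 7 Tudor genes did not pass. Stk31 stood at 31.4 and 26.2 CPM in KO, against 41.9 and 62.4 CPM in WT, at -0.86 on the log2 scale (adjusted p = 0.107 by edgeR). The 3 most abundant of the list were Tdrd6, Tdrd7 and Rnf17. For Tdrd7 both KO libraries lay above both WT libraries, as in 29.4% of all tested genes. Tdrd6 had 1549 and 1670 CPM in KO, against 1528 and 1595 CPM in WT, Tdrd7 had 521 and 510 CPM in KO, against 464 and 475 CPM in WT, and Rnf17 had 274 and 287 CPM in KO, against 258 and 293 CPM in WT. These 3 were named after their values were seen, and their log2 fold changes were 0.04, 0.14 and 0.03. Tdrd9, also named after its values were seen, had 108 and 106 CPM in KO, against 129 and 146 CPM in WT. Its log2 fold change was -0.36 (adjusted p = 0.113 by edgeR).

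Of 12 genes for making piRNAs, 0 passed the edgeR test in either direction, while 5 were lower and 1 higher with an unadjusted p under 0.05 and 3 were lower by DESeq2. Of all genes edgeR called 0.454% in each direction, 12.8% were lower and 11.8% higher unadjusted, and 4.02% lower by DESeq2. Mov10l1, the helicase that feeds precursors into processing and binds PIWI proteins, stood at 48.4 and 35.7 CPM in KO, against 66.2 and 89.4 CPM in WT (log2 fold change -0.89 ± 0.20 SE; adjusted p = 0.0996 by edgeR). Gpat2, a mitochondrial acyltransferase that binds MILI, stood at 16.6 and 13.8 CPM in KO, against 24.9 and 25.3 CPM in WT (log2 fold change -0.72 ± 0.13 SE; adjusted p = 0.0814 by edgeR). The co-chaperone gene Fkbp6 had a log2 fold change of -0.74 ± 0.17 (SE; adjusted p = 0.102 by edgeR). The germ cell helicase gene Ddx4, at 800 and 845 CPM in KO against 723 and 833 CPM in WT, and Mael, at 1570 and 1694 CPM in KO against 1431 and 1418 CPM in WT, were named after their values were seen and did not pass either.

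**Figure D4:**
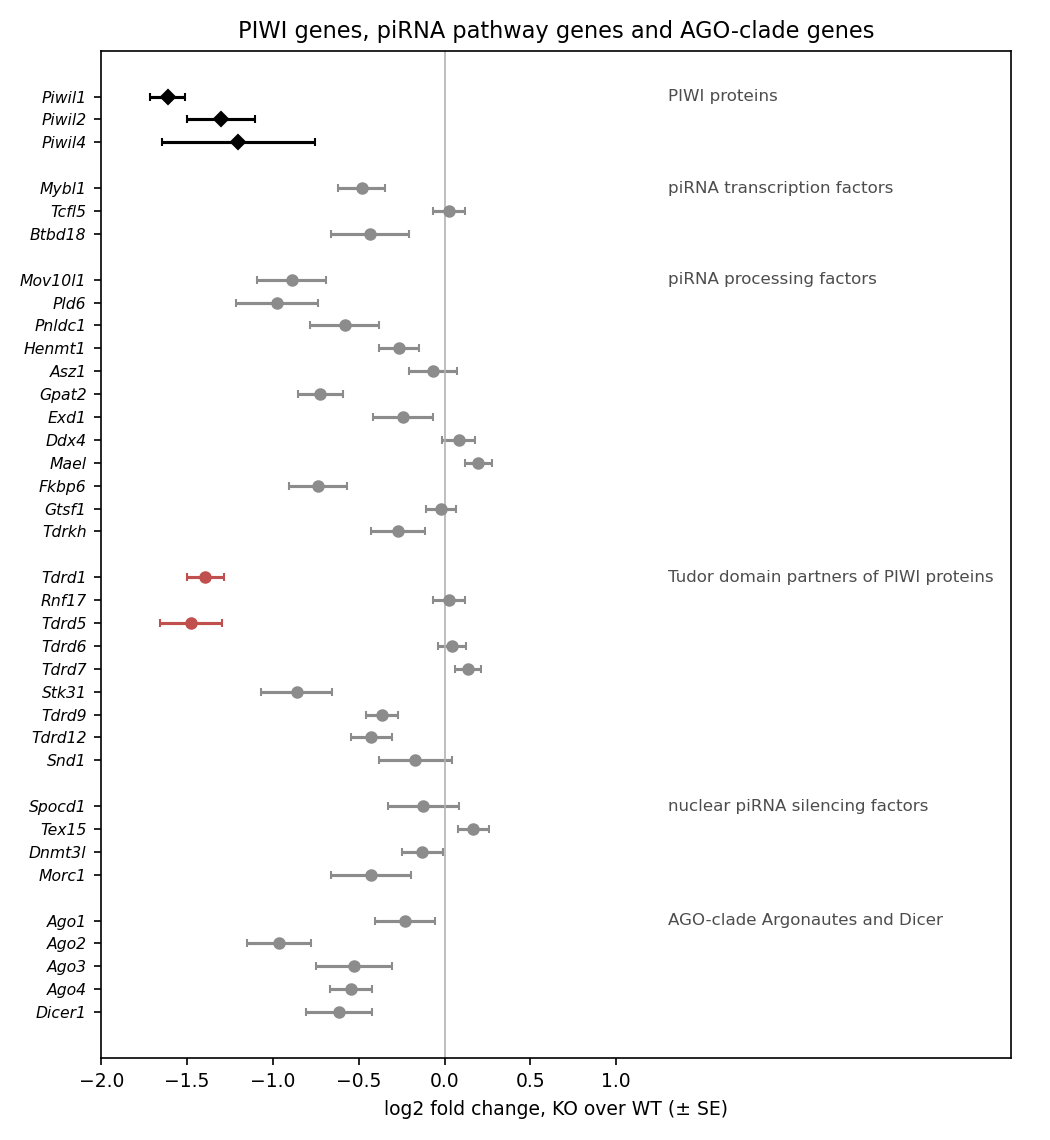
Log2 fold change (KO over WT) with its SE for the 3 PIWI genes, 28 tested piRNA pathway genes and 5 genes for AGO-clade Argonautes and Dicer. Black diamonds are the PIWI genes, given without a test, red circles are genes past the threshold and grey circles are the rest. Tdrd1 at -1.39 and Tdrd5 at -1.48 lie beside the PIWI genes, and most of the others lie between them and 0.

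Regulators of the pathway and its nuclear arm had 0 genes past the edgeR test, beside 0.454% of all genes in each direction. In lists this short, 0 calls says little. Of 3 transcription regulators, 1 was lower at an unadjusted p under 0.05 (12.8% of all genes) and 1 by DESeq2 (4.02%). That gene was Mybl1, which encodes the A-MYB activator of pachytene piRNA loci, at 73.0 and 70.4 CPM in KO, against 87.2 and 113 CPM in WT (log2 fold change -0.48 ± 0.14 SE; adjusted p = 0.125 by edgeR). Btbd18 was at -0.43 and Tcfl5 at 0.03. Over all genes, 12.8% were lower and 11.8% higher unadjusted, and 4.02% lower and 2.45% higher by DESeq2. Of 5 genes that act with MIWI2 in the nucleus 4 were tested, and 0 passed by edgeR, at an unadjusted p under 0.05 or by DESeq2. Their log2 fold changes ran from -0.43 for Morc1 to 0.17 for Tex15, with Dnmt3l at -0.13.

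Over the 4 lists together, 2 of 28 tested pathway genes were lower and 0 higher by edgeR, beside 0.454% of all genes in each direction. With an unadjusted p under 0.05, 11 were lower and 1 higher, beside 12.8% of all genes lower and 11.8% higher. DESeq2 called 7 lower and 0 higher, beside 4.02% of all genes lower and 2.45% higher. The 28 genes had a median log2 fold change of -0.27, against 0.01 over all tested genes. Of the 28, 21 were negative, beside 7691 of all 15636 tested genes. In 15 both KO libraries lay below both WT libraries and in 3 above, beside 27.9% and 29.4% of all genes. The edgeR count of lower pathway genes was 1 when KO replicate 1 was left out and 0 for KO replicate 2, and leaving out WT libraries gave 12 (replicate 1) and 5 (replicate 2). These lists were drawn up with earlier results of the same libraries known, and are not independent evidence of a direction.

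The AGO clade is the Argonaute branch that carries microRNAs in most tissues. Taken with Dicer1, 0 of 5 genes passed the edgeR test, beside 0.454% of all genes in each direction. Lower genes numbered 3 at an unadjusted p under 0.05, beside 12.8% of all genes, and 2 by DESeq2, beside 4.02%. Ago2 stood at 11.3 and 9.83 CPM in KO, against 17.2 and 23.8 CPM in WT (log2 fold change -0.96 ± 0.19 SE; adjusted p = 0.0874 by edgeR). Ago4 was at -0.54 and Dicer1 at -0.61, and all 5 were negative, as were 7691 of all 15636 tested genes. The difference between PIWI and AGO genes was not tested.

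Genes tied to MIWI in spermatids were examined as well. MIWI binds mRNAs of the CREM program. Of the 8 associated factors edgeR called 0, beside 0.454% of all genes in each direction. DESeq2 called 0, beside 2.45% of all genes higher and 4.02% lower. An unadjusted p under 0.05 was found for 2 higher and 1 lower genes, beside 11.8% and 12.8% of all genes. Crem, the activator of that program, stood at 326 and 346 CPM in KO, against 267 and 269 CPM in WT (log2 fold change 0.33 ± 0.08 SE; adjusted p = 0.105 by edgeR). Rnf8, a ubiquitin ligase gene studied with MIWI in spermatids, was at -0.60, and Pabpc1, for a poly(A)-binding protein, at 0.21. Of 6 CREM target mRNAs 0 passed by edgeR, at an unadjusted p under 0.05 or by DESeq2, beside the same shares of all genes. In 0 of the 6 did both KO libraries lie on one side of both WT libraries. Of all genes 27.9% had both KO libraries below and 29.4% above. The log2 fold changes of the 6 lay between -0.37 for Prm2 and 0.00 for Ace, with an SE of 0.61 for Prm2.

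Genes with a pattern over the 4 libraries most like that of each PIWI gene were found by the root mean square distance of log2 CPM, with 1 CPM added, after centring each gene on its mean. The search covered 12194 named genes whose mean reached 1 CPM. Nearest to Piwil1 were Ap1g1, at a distance of 0.0214, followed by Rapgef2, Adamtsl1, Fbxo3 and Nckap1, with distances up to 0.125. Tdrd1 and Tdrd5 ranked 6 and 7, at 0.128 and 0.142, and Piwil2 ranked 22, at 0.219. Ap1g1 stood at 41.3 and 35.8 CPM in KO, against 111 and 124 CPM in WT. Nearest to Piwil2 were Snrpb, Cntrob, Pkd2l1, Serinc5 and Pcgf5, at 0.0359 to 0.0819. Among pathway genes Tdrd1 ranked 31 for Piwil2, Tdrd5 ranked 92 and Mov10l1 ranked 104. For Piwil4 the nearest were Bin2, Spats2, Vps26b, Wdr45b and Klc1, at 0.00797 to 0.0171, but adding 1 CPM leaves a gene of this level almost flat. With 4 libraries from 2 genotypes, a like pattern mostly repeats the genotype difference and the distance between the WT libraries.

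Genes beside the PIWI loci were read in the same fit. The 3 tested genes on each side were taken whatever their distance. Of the 6 around Piwil1, 0 passed the edgeR test, beside 0.454% of all genes in each direction. By DESeq2 0 passed, beside 4.02% of all genes lower and 2.45% higher. At an unadjusted p under 0.05, 1 was lower and 1 higher, beside 12.8% and 11.8% of all genes. Log2 fold changes ran from -0.63 for Slc15a4 to 0.26 for Rimbp2, which lies 2.32 kb from Piwil1. The farthest of the 6 lies 1137 kb away. Of the 6 around Piwil2, 0 passed edgeR or DESeq2, while 2 were lower and 3 higher at an unadjusted p under 0.05, beside the same shares of all genes, with log2 fold changes from -0.96 for Slc39a14 to 0.91 for Phyhip. Of the 6 around Piwil4, 1 passed and was higher by edgeR and by DESeq2, beside 0.454% and 2.45% of all genes, with an unadjusted p under 0.05 for 3 higher and 0 lower genes. That gene was Ankrd49, at 116 and 119 CPM in KO, against 80.2 and 78.9 CPM in WT (log2 fold change 0.56 ± 0.08 SE; adjusted p = 0.0490 by edgeR). It overlaps Mre11a on the opposite strand, so its level is uncertain. Its call ended under 5 alternatives, without KO replicate 1 (adjusted p = 0.289 by edgeR) and without KO replicate 2 (adjusted p = 0.505 by edgeR) among them.

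The lower PIWI levels in KO had the same sign under the 10 alternatives computed. For each gene the lowest WT value was at least 1.85 times the highest KO value. The alternatives reuse these libraries and had little room to turn the sign, so it is no further support. Piwil1 ranged from -1.76 to -1.53, Piwil2 from -1.62 to -0.99 and Piwil4 from -1.43 to -0.99 on the log2 scale. The range was narrowest for Piwil1 and widest for Piwil2, whose ends were the fits without 1 or the other WT library.

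**Figure D5:**
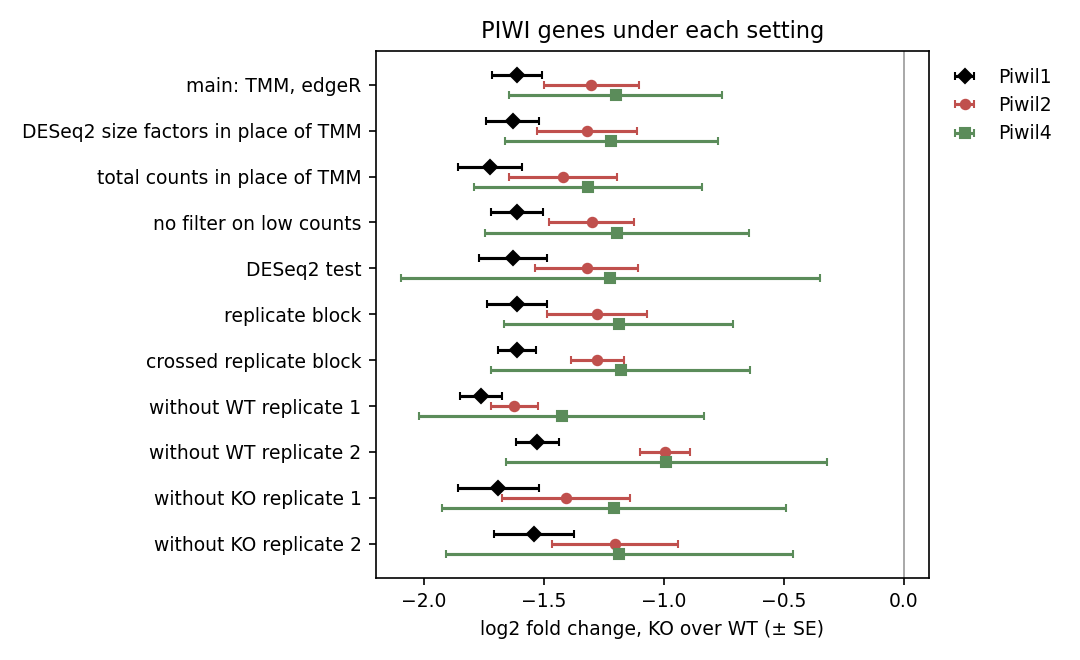
Log2 fold change (KO over WT) with its SE for Piwil1, Piwil2 and Piwil4 under the main processing and 10 alternatives. Piwil1 stays between -1.76 and -1.53, and Piwil2 is at -1.62 without WT replicate 1 and -0.99 without WT replicate 2.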

How the data were processed

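Poly(A) RNA of adult testis was sequenced in 2 KO and 2 WT libraries. The deposited table holds whole-number read counts per Ensembl gene, without normalization visible in the values. RSEM, StringTie 1.3.1, HISAT2 2.1.0, Bowtie2 2.2.8 and fastp 0.18.0 are named in the submitters' processing notes, without roles. Build, annotation and strandedness of counting are not stated. Each column was assigned by the genotype and number in its name. GENCODE M21 matched 22219 of 22274 identifiers.

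Counts were tested with edgeR 4.0.16 (R 4.3.3) by the two-sided quasi-likelihood test, with TMM factors, filterByExpr (minimum count 10, minimum total 15; 15636 genes kept) and Benjamini-Hochberg adjustment over all tested genes at 0.05. The fit was also run on simulated counts with known fold changes, drawn independently for each gene, and no result here rests on that run. SE is the log2 fold change divided by the square root of F. Exact permutation of 2 against 2 libraries cannot reach that threshold and was not used. Intervals are at 95%.

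The members, lists and tests were chosen with earlier results of these data known. Named were the PIWI genes, Fam170a, list members past the threshold, up to 3 per list with the smallest p, the 3 tested genes on each side of each PIWI gene, and the 5 most like in pattern. Genes outside that rule are marked in the text, save those that close a range or illustrate a marker list. Alternatives were DESeq2 1.42.0 size factors, total counts, no filter, the DESeq2 test, a block on the replicate number, a crossed block, each library left out over the same genes, and the longest transcript as length.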

Additional observations from a re-analysis of the deposited data

How the results depend on the processing

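Over all genes, 71 were higher and 71 lower in KO. These counts were 32 higher with total counts, 171 higher and 280 lower without a filter, and 383 higher and 628 lower with DESeq2. Leaving out 1 library gave 8 to 1264 higher and 3 to 1936 lower, the highest without WT replicate 1 and the lowest without KO replicate 2. The count of 2 pathway genes lower in KO was 4 without a filter, 7 with DESeq2 and 0 to 12 without 1 library. Without 1 library the log2 fold change ran from -1.76 to -1.53 for Piwil1, -1.62 to -0.99 for Piwil2 and -1.43 to -0.99 for Piwil4. With the longest transcript as length, Piwil4 took 0.217% of the PIWI signal in KO and 0.175% in WT, against 0.144% and 0.116% with the union of exons. The cause of these shifts was not tested. A fit without 1 library assumes that the lone library varies like the other genotype's pair. With total counts the median of all genes was -0.10 in place of 0.01, and Piwil1, Piwil2 and Piwil4 were at -1.72, -1.42 and -1.32.

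Nothing in the labels pairs libraries of the same number. With the replicate number as a block, 6 genes were higher and 3 lower, while 0 pathway genes were lower and Piwil1 was not called. Deviations of same-numbered libraries from their genotype means correlated at -0.243 across genes, so the crossed pairing was added after seeing the data, and with it 298 genes were higher and 604 lower, with 6 pathway genes lower. Depth limits Piwil4, whose 8 to 23 counts per library leave wide intervals.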
